A study of Mus musculus with 3 samples.

Results

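The aquaporin genes measured here were *Aqp1*, *Aqp3*, *Aqp4*, *Aqp5*, *Aqp7* and *Aqp11*, chosen by name from the gene list of the count matrices, which makes 6 of 31053 genes. Their unique molecular identifiers (UMIs, one for each captured transcript) were counted in every kept cell, by deposited cluster label and by library. Another 6 aquaporin genes of the same list (*Mip*, *Aqp2*, *Aqp6*, *Aqp8*, *Aqp9* and *Aqp12*) were only counted. All 6 genes studied were detected in every library, with between 5 and 33290 UMIs per gene and library.

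Aquaporins are membrane channels that let water cross cell membranes, and some of them, the aquaglyceroporins, also pass glycerol. In the eye AQP1 is known from the keratocytes and endothelium of the cornea, the trabecular meshwork (TM, the filter through which aqueous humor leaves the eye), the ciliary epithelium that secretes it, and blood vessels outside the retina. AQP3 and AQP5 are known from the epithelium of the ocular surface, AQP4 from glia and the non-pigmented ciliary epithelium, AQP7 from fat cells and capillaries, and AQP11 is a distant relative found in the membranes of the endoplasmic reticulum.

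The channel pore of these proteins is lined by a short motif of asparagine, proline and alanine (Asn-Pro-Ala) that occurs in 2 copies, and the coding stretches that spell it are shown because they separate the classical water channels *Aqp1* and *Aqp5* and the glycerol channel *Aqp3* from *Aqp7* and *Aqp11*. Each stretch is 30 bases of the sense strand of the GENCODE M21 transcript (build GRCm38), read 5′ to 3′, with the 9 bases of the motif in capitals. *Aqp1* lies at chr6:55336432-55348555 on the plus strand, has 4 exons and 269 codons, and holds Asn-Pro-Ala from codon 76 and from codon 192.
Aqp1, codon 76: gctcacctcAACCCTGCGgtcacactgggg
Aqp1, codon 192: tgcggtatcAACCCTGCCcggtcatttggc
*Aqp3* lies at chr4:41092722-41098183 on the minus strand (6 exons, 292 codons) and holds the motif from codons 83 and 215.
Aqp3, codon 83: gcccacttgAACCCCGCTgtgaccttcgca
Aqp3, codon 215: tatgccgtcAACCCTGCCcgtgactttgga
*Aqp5* lies at chr15:99590782-99594829 on the plus strand (4 exons, 265 codons), between *Aqp2*, which ends 6234 bp before it, and *Aqp6*, which starts 6570 bp after it.
Aqp5, codon 69: ggccacatcAATCCGGCCattactctggcc
Aqp5, codon 185: tgttccatgAACCCAGCCcgatctttcggc
*Aqp7*, an aquaglyceroporin at chr4:41033074-41048139 on the minus strand (6 exons, 303 codons) and 44582 bp from *Aqp3*, carries Asn-Ala-Ala at codon 79 and Asn-Pro-Ser at codon 211.
Aqp7, codon 79: gcccacatgAATGCCGCAgtgactttcacc
Aqp7, codon 211: tatgcaatcAACCCATCCcgtgacctgcct
*Aqp11* at chr7:97724006-97738289 on the minus strand (3 exons, 271 codons) carries Asn-Pro-Cys at codon 99 and Asn-Pro-Ala at codon 216.
Aqp11, codon 99: acagctagcAACCCGTGCggcgtgatgatg
Aqp11, codon 216: gcattgtttAACCCAGCGctggcactttct

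The cells came from the iridocorneal angle and corneal limbus of mice aged 6 weeks. Control mice carried the floxed *Angpt1* allele on both chromosomes without Cre, and *Angpt1*ΔNC mice carried the same alleles with the *Wnt1*-Cre transgene, which recombines in the neural crest and its descendants, so that the stroma and TM but not the blood endothelium or the surface epithelium lose the gene. Mice of both genotypes came from crosses onto the albino ICR strain, and the eyes of 2 to 3 animals (4 to 6 eyes) were pooled per library, which gave 2 control libraries (control replicates 1 and 2) and 1 *Angpt1*ΔNC library. The library is the replicate, the *Angpt1*ΔNC group has 1, and Cre itself is present in that library only. Tests of genotype therefore rest on the spread between the 2 control pools alone.

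After the filters 9076 and 10160 cells were kept in control replicates 1 and 2 and 6772 in *Angpt1*ΔNC. The median cell held 6329.5, 6393.5 and 7444 UMIs, and values given in threes below follow this order of libraries. *Angpt1*, the deleted gene, had 2911 and 3158 UMIs in the controls and 26 in *Angpt1*ΔNC. The pools were described as mixed in sex, but *Xist*, which marks female cells, was found in 3 and 2 cells of the controls and in 3975 of *Angpt1*ΔNC, so that sex and genotype cannot be told apart except within male-typed cells (a UMI of a Y-linked gene and none of *Xist*), which were 6325, 7326 and 1990. Kept cells of different libraries shared 13 to 25 barcodes per pair. Of the 35 labels, the study names label 5 as corneal epithelium, 4 as limbal epithelium, 3 as conjunctival epithelium and 7 as ciliary epithelium. Label 20 is named as pericytes and 23 among the monocytes. EC2, EC3 and EC4 are described as venous, choriocapillary and arterial blood endothelium. TM1 is named as keratinocytes (the keratocyte list was high here, as given beside its test) and TM2 as corneal endothelium. TM4 and TM5 are read as TM, and TM6 to TM9 as uveal stroma. The study also proposes that TM7 may be associated with the TM. In its list of expressed genes it counts TM3, TM4, TM5, TM7 and TM11 as TM cells. The study proposes that TM10 may be Cd34-positive corneal stroma and that TM11 is analogous to beam cells. *Aqp1*, *Aqp3*, *Aqp4* and *Aqp5* are among the genes of the authors' integrated table and so were available to the clustering, and levels of these genes by label are a description with no test.

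*Aqp1* was the most widely expressed member, with enough UMIs for a test in 27 of 32 labels, and was highest in TM1. Its level, the mean over cells of UMIs per 10,000 UMIs of the cell, in TM1 was 14.3 and 11.9 in the controls and 14.3 in *Angpt1*ΔNC, where 98.1%, 100.0% and 100.0% of cells held a UMI. The label with the next highest mean over the controls was EC2, with levels of 11.4 and 4.10, so that its 2 control libraries lay far apart, and TM5 (6.93 and 6.11), EC3 (6.13 and 6.48), TM11 (5.51 and 7.07) and TM2 (4.94 and 5.54) followed. Each of these labels overlapped its neighbour in the order, although both controls of TM5 and of EC3 lay above both controls of TM2. TM2, the corneal endothelium whose pumping keeps the cornea clear, had an *Aqp1* UMI in 86.7% and 90.5% of control cells.

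Below them came EC4 (2.80 and 4.83 UMIs per 10,000), label 18 (2.45 and 3.70), TM9 (2.58 and 3.21), TM4 (2.32 and 2.73), TM3 (1.89 and 1.91) and label 17 (1.79 and 1.85), a stromal label. The uveal stroma labels TM6, TM7 and TM8 lay at 0.654 and 0.969, 0.385 and 0.640, and 0.210 and 0.643, and the ciliary epithelium of label 7 at 0.890 and 0.581. Free RNA was read in the limbal and corneal epithelium, which should lack *Aqp1*. There, 1.52% of 989 cells and 3.06% of 1012 cells of the controls had an *Aqp1* UMI at median depths of 17717 and 15168.5 UMIs, and 2.52% of 911 cells in *Angpt1*ΔNC. In TM6 to TM9 the share was 13.9% (95% confidence interval, CI, 12.2 to 15.7) and 23.7% (CI 21.8 to 25.8) in the controls at the lower depths of 4739.5 and 5099.5. These intervals are exact Clopper-Pearson intervals and cover counting error only. Labels TM1 to TM11 together held 69.6%, 68.4% and 68.5% of all *Aqp1* UMIs in the 3 libraries.

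**Figure D1:**
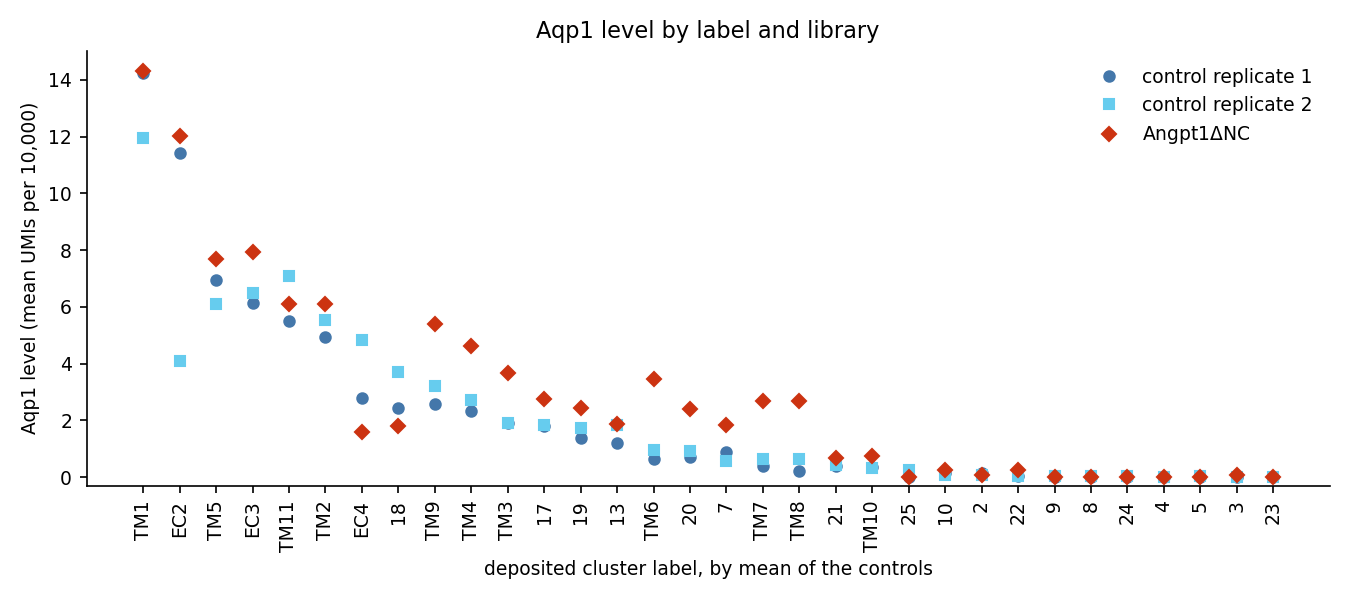
*Aqp1* level (mean over cells of UMIs per 10,000 UMIs, linear axis) in the labels with at least 20 cells in every library, with 1 point for each library. TM1 is highest at 11.9 to 14.3, and in TM6 to TM9 the *Angpt1*ΔNC point lies above both control points.

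The share of a label's *Aqp1* UMIs held by its top decile of cells was also read, but it depends on the number of UMIs. In TM1 the top decile of cells by *Aqp1* UMIs held 22.05% and 24.5% of the label's *Aqp1* UMIs in the controls, and in TM8 it held 100.0% and 83.3%. The median TM8 cell of each control had no *Aqp1* UMI, whereas the median cell of *Angpt1*ΔNC in TM8 was at 1.73 UMIs per 10,000 and the top decile held 48.5%. In TM8 of control replicate 1 there were 59 UMIs and 60 cells in the top decile, so the 100.0% was fixed in advance. These shares therefore cannot tell how evenly the cells of a label expressed the gene.

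*Aqp1* was higher in *Angpt1*ΔNC in 8 of the 27 labels in which it could be tested and lower in none. The 8 labels were the pericytes of label 20, the uveal stroma labels TM7, TM8 and TM9, TM3, the TM label TM4, TM10 and the venous endothelium EC2. TM3 expressed *Angpt1* in the controls, and the study counts TM3 and TM7 among its TM cells. Log2 fold changes ran from 0.88 in TM4 to 2.82 in TM8. For *Aqp1*, *Angpt1*ΔNC lay above both controls in 21 of 32 labels and below both in 4, a count with no test. In the T and B cells of label 22 there were 1, 5 and 18 *Aqp1* UMIs in 89, 133 and 105 cells. Higher values were thus not confined to the 8 labels called. Over all labels 2.49% of 267352 tests of a gene in a label were called higher in *Angpt1*ΔNC and 2.43% lower, by an edgeR quasi-likelihood test on UMIs summed per library with Benjamini-Hochberg adjusted p under 0.05 within a label.

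In TM8 the *Aqp1* level was 0.210 and 0.643 in the controls and 2.67 in *Angpt1*ΔNC (59, 168 and 231 UMIs in 591, 612 and 155 cells). The controls themselves differed, but *Angpt1*ΔNC lay outside their range, with a log2 fold change of 2.82 (SE 0.37, adjusted p = 0.00132) where 1.97% of all genes tested in TM8 were called higher. It was 2.29 without control replicate 1 and 3.69 without control replicate 2.

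TM7 gave *Aqp1* levels of 0.385, 0.640 and 2.69 (139, 306 and 332 UMIs in 667, 739 and 174 cells), again with no overlap. The log2 fold change was 2.36 (SE 0.30, adjusted p = 0.00444), beside 2.53% of genes called higher in that label. TM9, in which *Aqp1* was already more frequent in the controls, had levels of 2.58, 3.21 and 5.40 and a log2 fold change of 0.98 (SE 0.21, adjusted p = 7.32e-05), where 7.16% of genes were called higher. In TM6 the levels of 0.654, 0.969 and 3.45 did not overlap either, and the log2 fold change of 1.97 (SE 0.33) had an adjusted p of 0.112. No gene at all passed the threshold in that label (0% in either direction), whose *Angpt1*ΔNC sum rests on 50 cells. Over TM6 to TM9 together an *Aqp1* UMI was found in 71.0% of *Angpt1*ΔNC cells (CI 67.5 to 74.3).

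Depth was somewhat greater in *Angpt1*ΔNC in these labels (a median of 5785 UMIs against 4739.5 and 5099.5 over TM6 to TM9). After each cell was thinned to 1000 UMIs, the share of cells with an *Aqp1* UMI was 0.508%, 5.72% and 19.4% in TM8, 2.85%, 5.95% and 21.3% in TM7, 6.25%, 4.40% and 30% in TM6, and 16.7%, 22.1% and 33.3% in TM9. The *Angpt1*ΔNC share thus stayed above both control shares in all 4 labels at equal depth.

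Pericytes, the contractile cells around capillaries, had *Aqp1* levels of 0.700, 0.918 and 2.39 in label 20 (132, 194 and 222 UMIs) and positive cells at 16.9%, 19.5% and 44.6%. *Angpt1*ΔNC lay above both controls, with a log2 fold change of 1.68 (SE 0.19, adjusted p = 2.38e-05) beside 3.46% of genes called higher. In TM4 the levels were 2.32, 2.73 and 4.62 and the log2 fold change was 0.88 (SE 0.20, adjusted p = 0.0136, with 2.86% of genes called higher). TM3 was at 1.89, 1.91 and 3.68, a log2 fold change of 0.96 (SE 0.20, adjusted p = 0.000129, with 2.76% called higher). The 2 controls of TM3 nearly coincided.

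TM10 gave low levels of 0.367, 0.317 and 0.734 with a log2 fold change of 1.22 (SE 0.28, adjusted p = 0.000402, with 5.76% of genes called higher). This call rested on female-typed cells. Male-typed TM10 cells were at 0.317, 0.310 and 0.208, where the log2 fold change was -0.51 (adjusted p = 0.505), and the female-typed *Angpt1*ΔNC cells at 1.56. In EC2 the call also depends on the control: levels were 11.4, 4.10 and 12.01, so that *Angpt1*ΔNC lay close to control replicate 1, and the log2 fold change of 0.99 (SE 0.26, adjusted p = 0.0069, with 3.36% called higher) was 1.46 without control replicate 1 and 0.60 without control replicate 2. EC2 holds 32, 38 and 37 cells, and too few of its *Angpt1*ΔNC cells were male-typed to be compared.

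**Figure D2:**
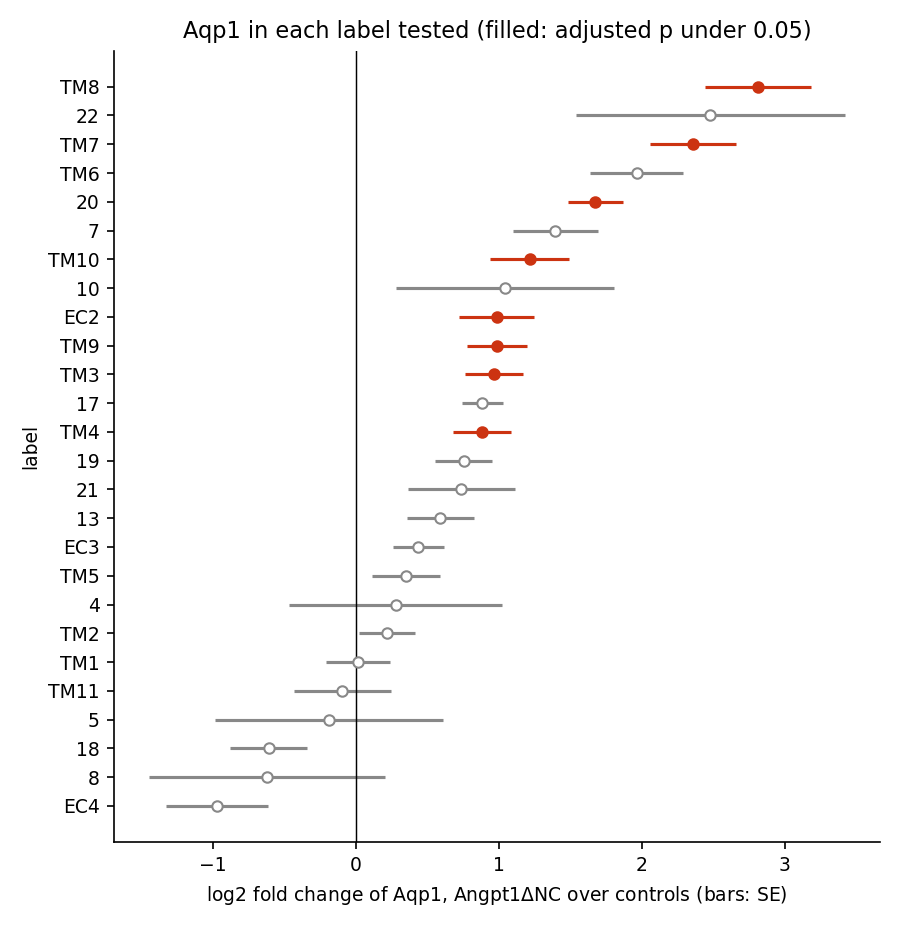
Log2 fold change of *Aqp1* in *Angpt1*ΔNC over the controls in each label tested (edgeR on UMIs summed per library), with bars of 1 SE; label 9, with no *Aqp1* UMI in *Angpt1*ΔNC, is left out. Filled points mark the 8 labels with an adjusted p under 0.05, all of them above 0.

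The difference was also read within 1 sex. Male-typed cells of TM7 held *Aqp1* at 0.356, 0.593 and 4.44, and female-typed *Angpt1*ΔNC cells at 2.29. In TM8 the male-typed levels were 0.194, 0.661 and 4.00 and the female-typed level was 2.23. Label 20 was at 0.740, 0.893 and 2.17 in male-typed cells and at 2.37 in female-typed cells, and TM3 at 1.82, 1.91 and 4.52 against 3.55. The male-typed *Angpt1*ΔNC level therefore exceeded both controls in these 4 labels, although it rests on 21 to 71 cells per label. In male-typed cells *Aqp1* was called higher in 8 of 21 labels, where 1.87% of all tests in male-typed cells were, among them TM6 (log2 fold change 2.48, adjusted p = 0.000603), while TM9 was at 0.83 (adjusted p = 0.0849).

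**Figure D3:**
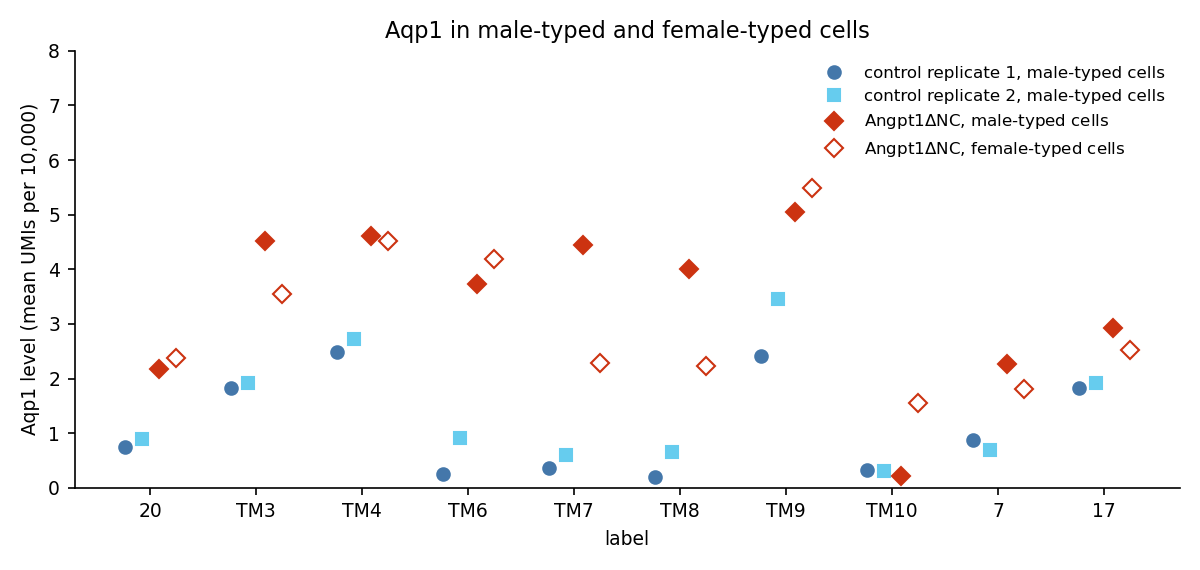
*Aqp1* level (mean UMIs per 10,000) in male-typed cells of each library and in female-typed cells of *Angpt1*ΔNC, by label. In TM7, TM8 and label 20 both kinds of *Angpt1*ΔNC cells lie above the male-typed control cells, and in TM10 only the female-typed cells do.

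Other cell types that carry *Aqp1* were read beside these labels. The endothelium list (*Cdh5*, *Pecam1*, *Tek* and *Plvap*, all 4 measured) summed to 0.0440 to 0.226 UMIs per 10,000 in the controls over TM6 to TM9 and to 0.0865 to 0.421 in *Angpt1*ΔNC, against 33.6 to 43.6 in EC2. *Cdh5* and *Tek* were at 0 in *Angpt1*ΔNC in TM6, TM8 and TM9. *Plvap* lay above both controls in these labels, at 0.156, 0.0850 and 0.421 in TM6, 0.0321, 0.0263 and 0.0865 in TM8 and 0.0491, 0.0617 and 0.224 in TM9. In cells without a UMI of that list the *Aqp1* levels were 0.367, 0.645 and 2.63 in TM7 and 0.210, 0.638 and 2.70 in TM8. Hemoglobin genes, which mark red blood cells, varied widely: the 4 of them summed to 7.29, 0.171 and 33.7 in TM8. Among cells with no hemoglobin UMI, *Aqp1* was at 0.179, 0.631 and 2.54 in TM8, 0.375, 0.650 and 2.94 in TM7, and 0.643, 0.913 and 2.32 in label 20.

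Other markers moved along with *Aqp1*. *Apoe*, the one high member of the Müller glia list, stood at 51.3 and 57.1 UMIs per 10,000 in the controls and 186 in *Angpt1*ΔNC in TM6, and at 38.1, 56.2 and 130 in TM8, while *Rlbp1*, which defines these glia, was at most 0.04 in TM6 to TM9. The TM list (*Myoc*, *Chil1*, *Chad*, *Nell2*, all 4 measured) fell within TM7 from 29.6 and 40.4 to 10.2 and within TM4 from 127 and 129 to 58.7. The pericyte list in TM7 summed to 13.6, 11.4 and 4.48, and the arterial list in TM9 to 1.93, 1.46 and 7.38, of which *Gja4* alone made 1.58, 1.10 and 7.005 while *Hey1* stood at 0.356, 0.339 and 0.229. The part of these shifts in the *Aqp1* difference was not tested.

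Of TM1, EC2, TM5, EC3, TM11 and TM2, the tested labels with the most *Aqp1* in the controls, only EC2 passed the test, as given above. In TM1 the log2 fold change was 0.02 (SE 0.22, adjusted p = 0.99), although the keratocyte list (*Kera*, *Lum*, *Aldh3a1*, *Ptgds*) stood at 162 and 160 UMIs per 10,000 in the controls and 80.2 in *Angpt1*ΔNC. TM2 was at 4.94, 5.54 and 6.11 (log2 fold change 0.22, SE 0.20, adjusted p = 0.667), TM5 at 6.93, 6.11 and 7.68 (0.35, SE 0.24) and TM11 at 5.51, 7.07 and 6.09 (-0.09, SE 0.34). EC3 was above both controls at 6.13, 6.48 and 7.95 (0.44, adjusted p = 0.136), and EC4 below both at 2.80, 4.83 and 1.60 (-0.97, adjusted p = 0.206). The ciliary epithelium of label 7, where aqueous humor is made, had levels of 0.890, 0.581 and 1.85 and a log2 fold change of 1.40 (SE 0.30) whose adjusted p was 0.0901. In Schlemm's canal the levels were 0.418, 1.29 and 3.09, but *Angpt1*ΔNC had 15 of these cells and no test was made.

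That the genotype difference in *Aqp1* was not equal in all labels was tested in 1 fit over the 32 labels, by an edgeR quasi-likelihood test of whether the genotype terms differ. The adjusted p was 0.00296, with 7% of 14666 genes called in the same way. This test takes label sums of the same 3 libraries as independent, which they are not. Over all kept cells, without regard to label, *Aqp1* was at 1.20, 1.44 and 2.28 UMIs per 10,000, a ratio of 1.73 to the control mean that became 1.503 once every library was weighted to the same mix of labels.

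The 250 bases before the RefSeq start of *Aqp1* (build GRCm38.p6, chr6:55336049-55336298, plus strand) are shown because *Aqp1* passed the test in more labels than any other member. Searched on both strands for the TATA box (TATAAA), the CCAAT box (CCAAT) and the GC box (GGGCGG), the window holds only the GC box, in capitals, 190 bases before the start, and its GC content is 62.0%.
Aqp1 promoter: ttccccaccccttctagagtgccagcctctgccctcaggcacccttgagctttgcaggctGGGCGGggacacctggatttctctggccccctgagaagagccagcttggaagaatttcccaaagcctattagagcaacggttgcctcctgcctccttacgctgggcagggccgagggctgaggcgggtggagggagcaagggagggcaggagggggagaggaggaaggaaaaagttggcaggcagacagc
Of all 32851 such windows, 12.4% hold the TATA box, 33.8% the CCAAT box and 32.7% the GC box, and a match to these letters is no measured binding site.

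*Aqp3*, a glycerol and water channel of epithelia, lay almost entirely in the surface epithelium. Labels 2 to 5 (limbal stem cells, conjunctival, limbal and corneal epithelium) held 99.0%, 98.6% and 99.0% of its UMIs in control replicate 1, control replicate 2 and *Angpt1*ΔNC. Its level was 11.7, 10.1 and 9.06 in label 3, 11.2, 8.35 and 7.55 in label 4, and 11.2, 8.14 and 6.82 in label 5, where 99.8%, 99.8% and 99.3% of cells were positive. Labels 3, 4 and 5 overlapped in the controls, and label 2 lay below them at 7.58 and 5.48. In TM6 to TM9, read for free RNA, 1.40%, 1.09% and 1.27% of cells had an *Aqp3* UMI.

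*Aqp3* passed the test in none of its 14 labels, and its unadjusted p was under 0.05 in none by edgeR and in none by DESeq2. In the 3 main epithelial labels *Angpt1*ΔNC lay below both controls, and the log2 fold changes were -0.36 in label 5 (SE 0.21, adjusted p = 0.415), -0.18 in label 4 (SE 0.19) and -0.19 in label 3 (SE 0.25). These differences did not exceed the spread of the 2 controls by the test. Averaged over all kept cells, *Aqp3* was at 1.44, 0.976 and 1.35, a ratio of 1.11 to the control mean, and with every library weighted to the same label shares the ratio was 0.768. The direction over all cells thus depends on the mix of labels.

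Outside the epithelium *Aqp3* was sparse. T and B cells (label 22) had levels of 0.361, 0.437 and 0.674 with 6.74%, 7.52% and 10.5% positive cells at a median depth of only 2267 to 2531 UMIs. In TM1 27.7%, 21.6% and 13.0% of cells held an *Aqp3* UMI (levels 0.317, 0.294 and 0.305). For every 1000 UMIs of the epithelial keratins there were 716 *Aqp3* UMIs in TM1 and 43.2 in the epithelium itself in control replicate 1, so the ratio in TM1 was not that of the epithelial source. The ratio was also above that of the epithelium (43.2, 36.4 and 37.5) in all 3 libraries in TM2 (246, 174 and 155), TM5 (522, 236 and 214) and label 7 (143, 382 and 156), from 12 to 33 *Aqp3* UMIs each. So it was in label 22 (321, 615 and 645), and in TM6 (90.9, 43.5 and 41.7) and TM9 (95.2, 60.2 and 49.6), which were read for free RNA. Those of TM6 rest on 3, 1 and 1 *Aqp3* UMIs and those of TM9 on 8, 5 and 6. In TM7 and TM8 it was not above in all 3 libraries. A raised ratio alone therefore does not set a label apart from those read for free RNA. The ratio of TM1 lay above those of TM6 and TM9 in all 3 libraries (716, 908 and 391, from 63, 59 and 25 *Aqp3* UMIs).

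The *Aqp3* promoter window (GRCm38.p6, chr4:41098184-41098433, minus strand) is set beside that of *Aqp1* because *Aqp3* kept to 1 tissue. It holds the TATA box 29 bases before the start and the GC box on the opposite strand 73 bases before it, both in capitals, with a GC content of 64.0%.
Aqp3 promoter: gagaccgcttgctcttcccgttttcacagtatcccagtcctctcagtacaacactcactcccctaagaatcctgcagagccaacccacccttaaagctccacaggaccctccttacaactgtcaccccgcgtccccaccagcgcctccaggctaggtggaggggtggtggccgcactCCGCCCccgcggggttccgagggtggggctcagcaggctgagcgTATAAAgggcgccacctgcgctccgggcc

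*Aqp5*, a water channel of glands and of the corneal epithelium, was concentrated in the differentiated corneal epithelium and was the member with the lowest levels in *Angpt1*ΔNC relative to the controls. Label 5 held 29463, 17663 and 6936 of the 33290, 18948 and 7590 *Aqp5* UMIs in the 3 libraries. Its level there was 17.9, 12.7 and 7.23, with 95.7%, 92.7% and 75.9% of cells positive. In TM6 to TM9, read for free RNA, the share was 1.40%, 1.09% and 1.27%.

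*Angpt1*ΔNC thus lay below both controls in label 5, but the controls differed as well. The log2 fold change was -0.84 (SE 0.22) with an adjusted p of 0.113, where 0.968% of genes were called lower, and DESeq2 gave an adjusted p of 0.0301. Male-typed cells were at 18.4, 12.9 and 7.66 and female-typed *Angpt1*ΔNC cells at 8.04.

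*Krt15*, a keratin of limbal and basal cells, moved in the opposite direction to *Aqp5* across the libraries. The level of *Krt15* in label 5 was 0.980, 3.13 and 16.5, and 23.7%, 43.6% and 77.4% of label 5 cells held a *Krt15* UMI. Cells without it had *Aqp5* at 19.8, 16.6 and 12.2 (439, 285 and 61 cells), and cells with it at 11.7, 7.60 and 5.77 (136, 220 and 209 cells). In every library the *Krt15*-positive cells were therefore lower in *Aqp5*, and within each class *Angpt1*ΔNC was lower than both controls. Among the cells without *Krt15* the log2 fold change was -0.31 (SE 0.20, adjusted p = 0.502), a comparison added after the data were seen. *Krt12*, the keratin of corneal epithelium, was at 181, 155 and 169 in the cells without *Krt15* and at 125, 93.1 and 108 in those with it. *Aqp3* was not split in this way, with 11.1, 8.11 and 6.01 without *Krt15* and 11.5, 8.18 and 7.06 with it.

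**Figure D4:**
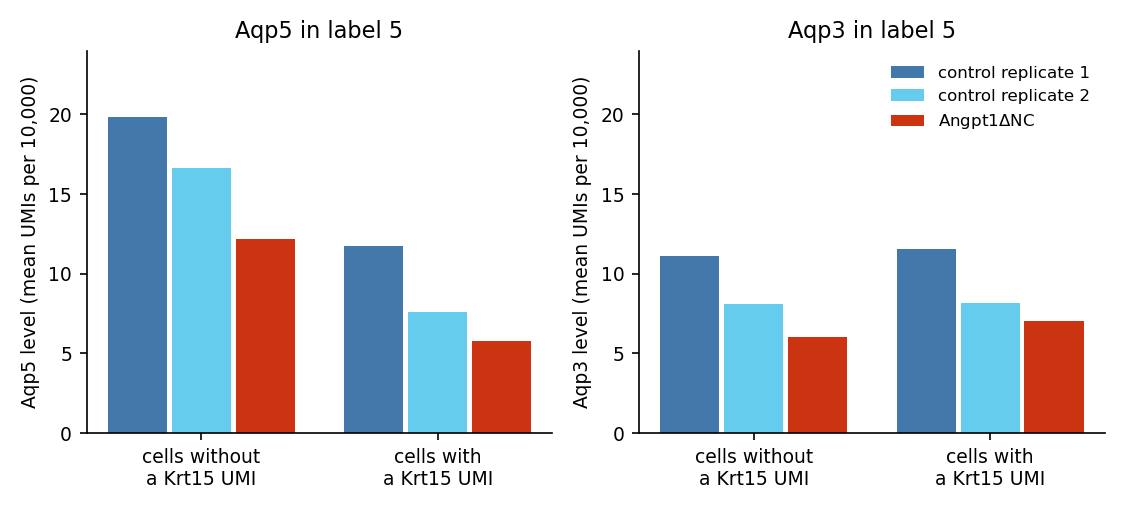
*Aqp5* and *Aqp3* levels (mean UMIs per 10,000) in corneal epithelial cells of label 5 with and without a *Krt15* UMI, with 1 bar for each library. *Aqp5* is lower in the cells with *Krt15* in all 3 libraries, and *Aqp3* is at about the same level in both classes.

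In the limbal epithelium of label 4, where *Aqp5* is sparse, the gene fell in *Angpt1*ΔNC. The level was 0.184, 0.0581 and 0.0133, from 98, 34 and 12 UMIs, and 9.66%, 4.73% and 1.72% of cells were positive. The log2 fold change was -2.99 (SE 0.42, adjusted p = 1.15e-10), beside 5.76% of genes called lower in that label, and it was -2.03 without control replicate 1 and -3.57 without control replicate 2. The 1.72% of *Angpt1*ΔNC (CI 0.860 to 3.05) is close to the share in TM6 to TM9, which are much shallower. Among the few label 4 cells without a *Krt15* UMI (22, 35 and 20 cells) the log2 fold change was -2.22 (adjusted p = 0.861).

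In the conjunctival epithelium of label 3 the level was 11.01, 3.04 and 0.399 (3464, 873 and 225 UMIs), and the log2 fold change of -4.45 (SE 0.96) had an adjusted p of 0.588 in a label in which no gene passed (0%), and was -5.07 or -3.25 when 1 control was left out. A few cells carried the signal: 23 of 98, 11 of 100 and 4 of 192 cells had 10 or more *Aqp5* UMIs, and they held 3412, 822 and 164 of them. The corneal list (*Krt12*, *Aldh3a1*, *Clu*) summed to 110, 210 and 93.1 in those cells and to 8.65, 11.4 and 10.5 in cells of the label with no *Aqp5* UMI. Their median depths were 33027, 25918 and 29146 UMIs against 18088, 15621 and 19527.5. The part that corneal cells, or doublets missed by the study's own doublet filter, have in the label 3 values was not tested.

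**Figure D5:**
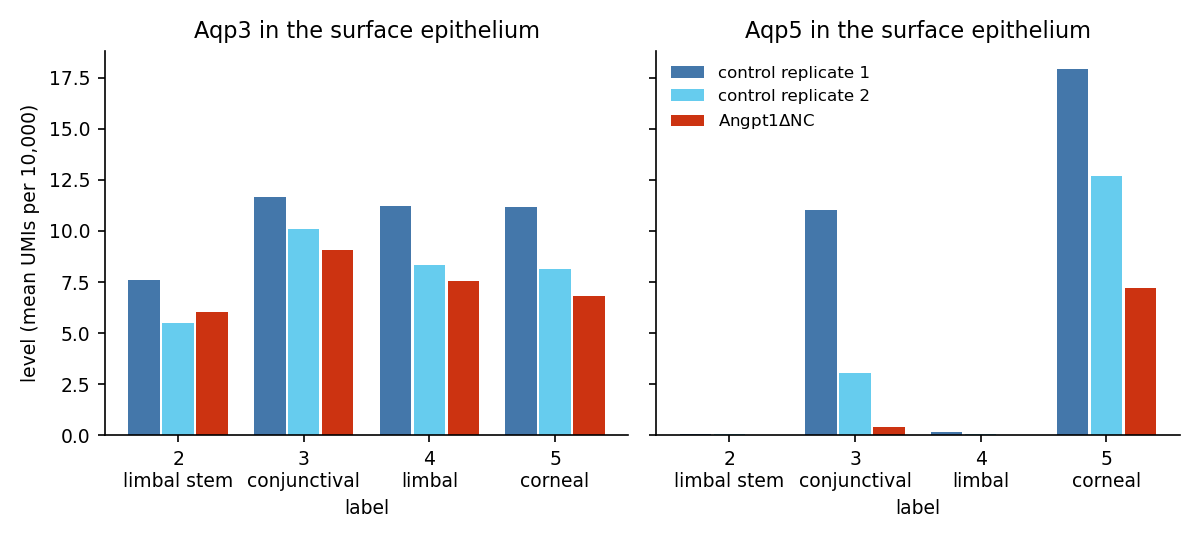
*Aqp3* and *Aqp5* levels (mean UMIs per 10,000) in the surface epithelium labels, with 1 bar for each library. *Aqp3* lies between 5.48 and 11.7 in all 4 labels, while *Aqp5* is high in label 5 and in the control libraries of label 3, and near 0 in labels 2 and 4.

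Low levels of *Aqp5* were also found in corneal endothelium and TM. TM2 was at 0.337, 0.482 and 0.691 with 13.3%, 14.5% and 20.6% of cells positive, and TM5 at 0.173, 0.310 and 0.399. For every 1000 epithelial keratin UMIs TM2 held 639 *Aqp5* UMIs and the epithelium 55.0 in control replicate 1, so these UMIs were not in the ratio of the epithelial source. *Angpt1*ΔNC lay above both controls in TM2 and TM5, and neither passed the test (log2 fold change 0.65, adjusted p = 0.28, and 0.71, adjusted p = 0.509).

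TM3 was the label in which *Aqp5* was called higher, 1 of 13 labels tested, with levels of 0.144, 0.117 and 0.430 (15, 27 and 38 UMIs) and a log2 fold change of 1.72 (SE 0.37, adjusted p = 0.00016, with 2.76% of genes called higher in TM3). Of the 38 UMIs, 36 came from female-typed cells (level 0.568), and male-typed cells were at 0.124, 0.125 and 0.147, with a fitted log2 fold change of -0.33 (adjusted p = 0.933). In the fit over labels the genotype difference in *Aqp5* was called unequal between labels (edgeR quasi-likelihood test, adjusted p = 0.000157). That fit takes label sums of the same 3 libraries as independent, which they are not. Over all kept cells *Aqp5* was at 1.31, 0.716 and 0.376, a ratio of 0.372 to the control mean that was 0.467 at equal label shares.

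*Aqp4*, the water channel of glial end feet (5 exons, 323 codons), was rare, and most but not all of its UMIs lay in the ciliary epithelium. Its UMIs numbered 39, 23 and 30 in the 3 libraries, of which label 7 held 29, 12 and 18. In label 7 5.06%, 4.67% and 5.04% of cells were positive and the level was 0.272, 0.167 and 0.129. The log2 fold change of -0.26 (SE 0.48, adjusted p = 0.868) was the only test possible, and a difference was not detectable at this depth. In the surface epithelium, which should lack the gene, 0.350%, 0.694% and 0.597% of cells were positive.

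The study names label 10 as astrocytes, a cell type for which *Aqp4* is a defining gene, but none of its 138, 148 and 70 cells held an *Aqp4* UMI, which allows a share of up to 2.17%, 2.03% and 4.29% of cells with a UMI and sets no limit on cells that express the gene. The median cell of label 10 held 3881.5, 4399 and 3714.5 UMIs, against 7949, 6826 and 9072 in label 7. In label 10 the astrocyte list (*Gfap*, *Aldh1l1*, *Aldoc*, *S100b*, *Slc1a3*) summed to 10.5, 9.55 and 8.20 UMIs per 10,000. *Gfap* (7.92, 6.55 and 4.68) and *S100b* (2.54, 2.98 and 3.38) made up nearly all of that sum, while *Aldh1l1* was at 0 in all 3 libraries and *Aldoc* and *Slc1a3* were at most 0.0862.

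*Aqp7*, the glycerol channel of adipocytes and capillary endothelium, had 6, 5 and 5 UMIs. The label with the highest level in the controls was EC4 (2, 3 and 0 UMIs), followed by the smooth muscle of label 19 (2, 1 and 0). No label could be tested, and at this depth no difference between libraries was detectable. The adipocyte markers *Adipoq*, *Plin1*, *Cidec* and *Lep* were all at 0 in EC4. The arterial list (*Gja4*, *Gja5*, *Hey1*, *Sema3g*) summed to 0.436, 1.00 and 1.14 UMIs per 10,000 in EC4 and to 3.18, 2.14 and 2.99 in EC2. The venous list summed to 1.40, 0.803 and 1.01 in EC4. *Gja4*, also high in the pericytes of label 20 (12.7, 11.9 and 13.4), made 2.67, 1.28 and 2.32 of the EC2 sums. No other member was higher in the same label in every library, so the arterial list did not mark EC4 off from EC2.

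*Aqp11* was sparse, and its level was highest in EC2, the label that the study describes as venous. There the venous list (*Selp*, *Nr2f2*, *Ackr1*, *Vwf*) summed to 7.37, 7.36 and 6.38 UMIs per 10,000, with *Ackr1* at 0. *Nr2f2* was at 0.214, 0.147 and 0.0505, so *Selp* and *Vwf* made nearly all of the sum. *Aqp11* levels in EC2 were 0.982, 0.989 and 0.682, with 43.8%, 50.0% and 43.2% of cells positive. They did not overlap the next label in the controls, the retinal pigment epithelium of label 1 (0.279 and 0.138). No cell type was assumed to lack *Aqp11*, so the share of 0.962%, 1.82% and 1.54% in the surface epithelium is given beside it and not as background.

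In the choriocapillaris label EC3 *Aqp11* was called higher, 1 of 7 labels tested. Its level was 0.140, 0.215 and 0.725 from 20, 33 and 29 UMIs, and 13.6%, 19.5% and 32.8% of cells were positive, so that *Angpt1*ΔNC lay above both controls. The log2 fold change was 1.57 (SE 0.37, adjusted p = 0.00429), beside 4.85% of genes called higher in EC3. None of the 29 UMIs came from male-typed cells, of which *Angpt1*ΔNC had 10 in EC3. Within EC3 the choriocapillaris list (*Plvap*, *Kdr*, *Ihh*) summed to 52.6, 51.7 and 25.3 and the venous list (*Selp*, *Nr2f2*, *Ackr1*, *Vwf*) to 0.422, 0.754 and 2.07, with *Ackr1* at 0. Their part in the *Aqp11* value was not tested. EC2 itself did not pass (log2 fold change -0.56, SE 0.36, adjusted p = 0.496), and label 7 stood at 0.0817, 0.114 and 0.0161 (adjusted p = 0.366).

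Pairs of aquaporins were found in the same cell where their labels coincide. In label 5, 95.6%, 92.7% and 75.7% of *Aqp3*-positive cells were also positive for *Aqp5*. Over the whole surface epithelium the share was 55.8%, 45.7% and 21.7%. In TM2 *Aqp5* was found in 13.5%, 14.7% and 21.1% of *Aqp1*-positive cells and in 11.6%, 12.5% and 15.4% of *Aqp1*-negative ones, whose median depth was lower (5913 against 7166 UMIs in control replicate 1). UMIs of both genes were thus found in 38, 67 and 63 TM2 cells. The part of free RNA or missed doublets in them was not tested. The top decile of TM2 cells by *Aqp5* UMIs held 87.2%, 87.8% and 78.9% of the label's *Aqp5* UMIs, a share that depends on their low number (78, 181 and 185). Only 43, 48 and 26 cells of TM2 were *Aqp1*-negative, and a split between cells was not tested. In TM1 27.6% and 21.6% of the *Aqp1*-positive control cells held *Aqp3*.

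Genes that work with aquaporins were counted from 4 lists, to be read against the 2.49% higher and 2.43% lower over all tests. The counts for anchoring and for glycerol handling were near these shares. Of the genes that anchor AQP4 at the membrane (the dystrophin complex and *Kcnj10*) 2 of 121 tests in a label were called higher and 2 lower: *Dtna*, a dystrobrevin, rose in TM10 (log2 fold change 3.05) and *Kcnj10*, a potassium channel, in label 9 (2.09), while *Agrn*, the matrix protein agrin, fell in TM3 (-1.03) and *Dag1*, its receptor dystroglycan, in label 20 (-1.05), both labels in which *Aqp1* rose. Glycerol handling had 5 tests called higher and 4 lower of 161. *Plin2*, a lipid droplet protein, rose in label 22 (2.41) and TM7 (1.68) and fell in EC3 (-0.90) and TM2 (-1.49), while *Gpd2*, the mitochondrial glycerol phosphate dehydrogenase, rose in labels 8 (0.68) and 9 (1.08). *Mgll* and *Lipe*, lipases that release glycerol, rose in label 9 (0.61) and fell in labels 4 (-1.38) and 5 (-1.56), respectively.

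Of the genes of the osmotic response, 2 of 215 tests were called higher and 12 lower. *Slc6a6*, the taurine transporter, fell in labels 20 (-2.54), 4, 9, EC2, EC4 and TM9, and so in 3 of the labels in which *Aqp1* rose. *Sgk1*, a kinase induced by osmotic and hormonal stress, fell in labels 2, 4, 8 and 9, with log2 fold changes from -1.84 to -1.19. *Slc5a3*, the inositol transporter, fell in label 9 and *Akr1b3*, which makes sorbitol, in TM10, while *Nfat5*, the factor that controls such genes, rose in EC3 and label 24. Both the 2 higher and the 12 lower of 215 stand beside 2.49% and 2.43% over all tests. The other aquaporins were near absent: *Aqp2* had 61, 26 and 7 UMIs, of which label 5 held 56, 22 and 6, *Aqp9* had 47, 62 and 43, with 13, 38 and 12 in label 23, and *Mip*, *Aqp6*, *Aqp8* and *Aqp12* had at most 5 each in a library. Label 23 held the dendritic cell list (*Flt3*, *Xcr1*, *Cd209a*) at 3.35, 1.18 and 1.20 UMIs per 10,000 and the macrophage list (*Csf1r*, *Cd68*, *C1qa*, *Adgre1*) at 9.46, 9.42 and 7.96. In label 5 the libraries stood in the same order for *Aqp2* UMIs, for the levels of *Aqp5* and *Aqp3*, and for the number of cells (575, 505 and 270).

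The genes whose levels ran most like those of each member over 34 labels were ranked by the lower correlation of the 2 controls among 7322 genes, as a description. *Aqp1* ran with *Plpp3* (Pearson r = 0.82 in control replicate 1 and 0.86 in control replicate 2), *Ppic* and *Itm2a*. *Aqp3* ran with the epithelial genes *Epcam* (r = 0.96 and 0.98) and *S100a14*, and *Aqp5* with *Syt8* (0.92 and 0.91), *Fam83a* and *Clic3*. *Aqp11* ran with *Slco1a4* (0.90 and 0.89), *Six3* and *Mecom*, while for the sparse *Aqp4* (*Cplx4*, *A930003A15Rik* and *Rtbdn*) and *Aqp7* (*Rbp7*, *Gpihbp1* and *Sox17*) the values rest on few UMIs. Labels of 1 library share its depth and free RNA, so these values carry no test.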

How the data were processed

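Single cells were measured in 3 droplet libraries, and the authors deposited raw UMI counts per gene and called cell, without normalization, together with a table of a cluster label (Cluster_Ident) for each kept cell and integrated values on a natural log scale. Only the counts and labels were used. The submitters' processing notes name Cell Ranger 2.1.1, Seurat 3.1.3 and build mm10, while the deposited matrix headers give 3.0.2. Cells were filtered upstream to at least 200 genes, at least 1000 UMIs and at most 10% mitochondrial UMIs. The study then removed predicted doublets with scDblFinder, and the kept cells are those that remained. No column of other samples was present (0).

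The members and gene lists were chosen with earlier results of these data known. A level is the average over cells of a gene's UMIs per 10,000, and shares carry exact 95% intervals (scipy 1.17.1, numpy 2.4.6, pandas 2.3.3, Python 3.11.15, with figures by matplotlib 3.10.9). A share of 0 allows 3 counts. Counts were summed per library and label, for the 32 labels with at least 20 cells in every library, and tested over all genes with edgeR 4.0.16 in R 4.3.3 (TMM, filterByExpr, quasi-likelihood F-test, Benjamini-Hochberg within a label, threshold 0.05). With 1 residual degree of freedom, the spread is that between 2 pools of control animals, and the single *Angpt1*ΔNC library is taken to share it. The kept cells of the 3 libraries held 76981606, 80346829 and 66484181 UMIs, and in a cell of median depth a gene at 1 UMI per 10,000 is often missed.

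Alternatives were DESeq2 1.42.0, relative log expression factors, no filter, equal cell numbers, male-typed cells, adjustment over all labels, 1 fit over labels, thinning to 1000 UMIs, other averaging and leaving out each control. Cells without hemoglobin, endothelial or *Krt15* UMIs, and the test of a difference between labels, were added after the data were seen. The test was tried on simulated data. All 6 members are named, with the 3 genes most like each (levels of at least 0.5 in a label, on log2(level + 0.1)) and those of 4 fixed lists that passed the test. Some items that these rules would name are not reported here. Other experiments of the study were not analysed here.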

Additional observations from a re-analysis of the deposited data

Results flagged for a closer look

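The difference between genotypes was itself unequal between labels for *Aqp1* and *Aqp5*, by an edgeR quasi-likelihood test over 32 labels with Benjamini-Hochberg adjustment over 14666 genes (7% of them called). For *Aqp1* the adjusted p was 0.00296, with log2 fold changes from 2.82 in TM8 and 2.36 in TM7 to 0.02 in TM1. For *Aqp5* it was 0.000157, with -2.99 in label 4 and -0.84 in label 5 against 1.72 in TM3. The sums of different labels in that fit come from the same 3 libraries and are not independent replicates. The same test gave an adjusted p of 0.889 for *Aqp3* and 0.547 for *Aqp11*.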

How the results depend on the processing

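Of 62 tests of a member in a label 11 passed (4.92% of tests over all genes), 12 of 62 with relative log expression factors (5.19%), 14 of 62 with adjustment over all labels (4.78%), 14 of 48 with equal cell numbers (5.06%), and 14 of 55, 14 of 56 and 12 of 56 in cells without *Krt15*, hemoglobin or endothelial UMIs (5.35%, 5.15% and 5.26%). Male-typed cells gave 9 of 47 (3.82%), DESeq2 7 of 62 (1.17%), the fit over labels 5 of 160 (1.81%) and no filter 17 of 144 (3.68%). *Aqp1* was higher in 8 labels, in 5 with DESeq2, in 3 with the fit over labels and in 8 to 12 with the others, and lower in 1 with equal cells, without *Krt15* or without a filter. Label 20 and TM7 passed in all 10 alternatives with a test, TM8 in 9, TM3, TM4, TM9 and *Aqp5* in label 4 in 8, TM10 and *Aqp5* in TM3 in 7, EC2 in 6 of 8 and *Aqp11* in EC3 in 6 of 8. Calls were gained for *Aqp1* in TM6 (9 of 10 alternatives), label 17 (6 of 10), label 7 (5 of 10) and EC4 (3 of 9, lower), and for *Aqp5* in labels 5 (2 of 10) and 3 (2 of 9). The cause of these changes was not tested. Signs turned in male-typed cells for *Aqp1* in TM10 (-0.51) and *Aqp5* in TM3 (-0.33), and for *Aqp1* in TM1, at 0.0151, without hemoglobin UMIs (-0.00606), without a filter (-0.0224), in the fit over labels (-0.0933) and without control replicate 2 (-0.0763, against 0.114 without control replicate 1). Leaving out a control gave log2 fold changes only, from 1.48 to 1.91 for *Aqp1* in label 20 and from 1.40 to 1.80 for *Aqp11* in EC3. *Aqp11* in EC3 had no UMI in male-typed *Angpt1*ΔNC cells and is not given there. No paired analysis was possible because the groups share fewer than 2 replicate numbers.

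Thinning to 1000 UMIs moved the control share of positive cells from 99.1% to 70.1% for *Aqp1* in TM1, 90.8% to 56.6% for *Aqp3* in label 3, 94.2% to 56.3% for *Aqp5* in label 5, 4.87% to 1.26% for *Aqp4* in label 7 and 46.9% to 10.2% for *Aqp11* in EC2. At 2 or more UMIs the shares were 97.1%, 88.9%, 2.19% and 25.2% for *Aqp1*, *Aqp5*, *Aqp4* and *Aqp11* in those labels. Depth therefore limits every share given. The level from summed UMIs was 0.142 for *Aqp4* (0.220 as the mean over cells) and 1.13 for *Aqp11* (0.986), which was 1.02 both thinned and without mitochondrial genes. Without one control the levels ran from 11.9 to 14.3, 10.1 to 11.7, 12.7 to 17.9, 0.167 to 0.272 and 0.982 to 0.989 for *Aqp1*, *Aqp3*, *Aqp5*, *Aqp4* and *Aqp11* in those labels. Over all cells the ratio of *Angpt1*ΔNC to the control mean was 1.73 for *Aqp1*, 1.503 at equal label shares and 1.44 from summed UMIs. It was 0.768 at equal shares for *Aqp3* against 1.11, and 1.18 and 0.849 in these alternatives for *Aqp11* against 1.01.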
